A study of Mus musculus with 6 samples.

Results

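The 40 genes described here encode the scaffold of the sarcomere: proteins of the Z-disc and M-band, the giant filaments titin and nebulin, the desmin network, and the actins with the proteins that cap and lengthen thin filaments. They were chosen by name from the genes on the array, with earlier results of these data known. Counts set beside shares over all genes therefore describe this set and do not test it. All 40 were measured, out of 23152 gene symbols, through 926 of the 233753 probe sets that carried exactly 1 symbol. One name is old: Kbtbd5 on the array is Klhl40 in RefSeq. A gene's level is the mean log2 value of its probe sets on an array, so a difference of 1 is a doubling.

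RNA was taken from the soleus, which is rich in slow fibres, of male mice aged 18 weeks after an overnight fast of 14 h. The control group (WT) was 3 Gna13 flox/flox mice. The knockout group (MKO) was 3 mice with the same floxed alleles and the Ckmm-Cre transgene, in which the muscle creatine kinase promoter drives Cre recombinase. This promoter is active in muscle fibres, so blood vessels, fibroblasts and other cells of the tissue keep Gna13. The labels name no Cre in the controls, so an effect of Cre itself and that of the deletion cannot be told apart. The labels call the replicates biological, and each mouse had 1 array.

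In each sarcomere, thin filaments of actin are anchored at the Z-disc by alpha-actinin and thick filaments of myosin are held at the M-band by myomesins. Titin spans from Z-disc to M-band, nebulin runs along the thin filament, and desmin ties neighbouring Z-discs to each other and to the membrane. Many Z-disc proteins also sense stretch, and several have separate versions in slow and fast fibres.

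Gna13, which encodes the G protein subunit targeted here, stood at 6.53, 6.92 and 6.74 in WT and at 6.63, 6.78 and 6.92 in MKO as a mean of 7 probe sets. Its probe set 17257825 read 5.48, 6.23 and 6.16 in WT and 3.43, 4.25 and 4.33 in MKO, a difference of −1.95 (SE 0.42). Of the other 6 probe sets, 3 had all MKO arrays above all WT arrays, and the gene mean differed by 0.04 (SE 0.13). The sources used here do not say which part of the gene these probe sets cover. The gene mean did not separate the groups. The muscle fibre markers Ckm (WT 9.77 ± 0.02, MKO 9.83 ± 0.18; SD, n = 3) and Mb were bright on all arrays, and none of the 8 fibre markers lay below the median gene level of 4.41. Of the 8, 3 were lower in MKO, and for 1 of these, Cox6a2 (−0.18, SE 0.07), all MKO arrays lay below all WT arrays. Array medians of the gene values lay between 4.3728 and 4.4650.

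Most scaffold genes stood lower in MKO, by small amounts. Of the 40, 34 were lower and 6 higher, with a median difference of −0.12, while 53.4% of all genes were lower with a median of −0.01. For 13 members all MKO arrays were lower than all WT arrays, against 4.99% of all genes. They were Flnc, Ldb3, Pdlim1, Pdlim3, Palld, Csrp3, Ankrd2, Des, Myom3, Mybpc1, Mybph, Tmod1 and Kbtbd5. For 1 member, Ankrd23, every MKO array lay above every WT array, against 4.26% of all genes. No member passed the test: limma called 0 of 40 and 0% of all genes at an adjusted p under 0.05, and the adjusted p of each member was 0.9997. At an unadjusted p under 0.05, 12 members were lower and 0 higher, against 2.41% and 1.92% of all genes. With 3 mice against 3, an exact two-sided permutation test of 1 gene cannot give a p below 0.1.

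The members are bright genes, and bright genes as a whole leaned the same way. All 40 lay above the median gene, between 5.77 for Mybph and 12.55 for Acta1, and 52.5% had a level of 10 or more, which only 0.609% of all genes reached. Among the 120 other genes at 10 or more, 68.3% were lower, with a median of −0.03, with all MKO arrays below all WT arrays for 7.5% of them and above for 2.5%. Over all 141 genes at that level, members included, these shares were 12.8% and 2.84%. An unadjusted p under 0.05 was reached by 11.3% of the 141 lower and 1.42% higher. Of the 120 non-members alone, 8 were lower and 2 higher at that p. Among the 21 members at that level, 19 were lower with a median of −0.10, and 9 had all MKO arrays below WT, with 1 above. At an unadjusted p under 0.05, 8 of these 21 were lower and 0 higher.

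The scaling of the arrays moved these counts. After quantile normalization, 29 members were lower with a median of −0.08 (0.00 for all genes), and at an unadjusted p under 0.05 10 were lower and 0 higher, against 2.48% and 2.52% of all genes. All MKO arrays then lay below WT for 7 members (Flnc, Ldb3, Pdlim1, Pdlim3, Palld, Des and Kbtbd5), against 5.11% of all genes, and above WT for Pdlim5 and Tmod4, against 5.25%. After median centring the count was again 7, with Csrp3 and Ankrd2 in place of Flnc and Pdlim3, against 3.39% of all genes, and Ankrd23 and Lmod2 lay above WT, against 5.57%. At an unadjusted p under 0.05, 6 were then lower and 0 higher, against 1.53% and 2.35%. Ldb3, Pdlim1, Palld, Des and Kbtbd5 were in all 3 sets. When a gene's level was instead the median of its probe sets, 8 of the 13 still had arrays apart. Pdlim1, Palld, Myom3, Mybpc1 and Tmod1 then overlapped. With Capn3 and Myom2 added, all MKO arrays lay below WT for 10 members, and they lay above WT for 1, Tmod4. No share over all genes is set beside these counts.

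MKO replicate 1 was the lowest array for 25 of the 40 members. Its median deviation from the WT mean was −0.22, against −0.07 and −0.04 for MKO replicates 2 and 3 and −0.01 to 0.01 for the WT arrays. After quantile normalization the MKO values were −0.11, −0.01 and −0.06, so the order of replicates 2 and 3 turned. The same array had a median deviation of −0.08 over genes at a level of 10 or more. WT replicate 2 was the highest array for 16 members. Without MKO replicate 1, 26 members were lower and 14 higher, with a median of −0.05. The count of members with all remaining MKO arrays below WT was 14, against 11.4% of all genes in that smaller comparison; leaving out an array cannot remove any of the 13 listed above. For 2 members they lay above, against 9.85%. At an unadjusted p under 0.05, 9 were lower and 0 higher, against 3.11% and 2.62% of all genes.

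**Figure D1:**
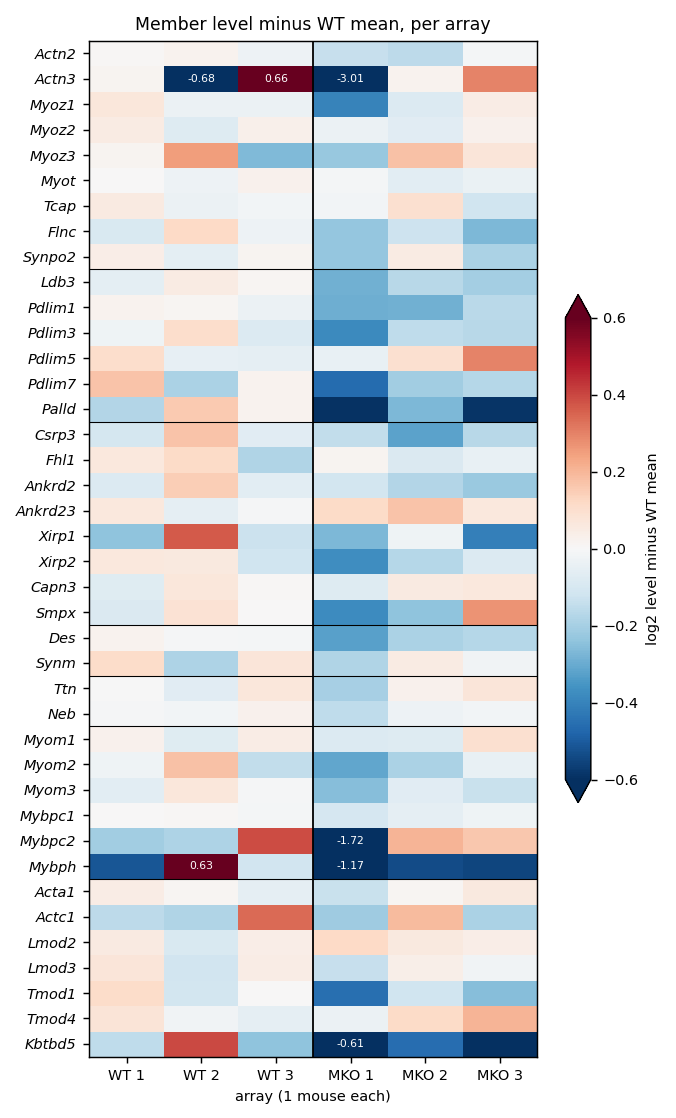
Level of each of the 40 members on each array minus the mean of the 3 WT arrays, on the log2 scale, with rows ordered by role; blue is below and red above the WT mean, and deviations beyond the colour scale are printed. MKO replicate 1 holds the darkest blue cells, at −3.01 for Actn3 and −1.72 for Mybpc2, while Ldb3, Pdlim1, Palld, Des and Kbtbd5 are blue on all 3 MKO arrays.

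PDZ-LIM proteins and palladin are adaptors that dock other proteins on alpha-actinin and actin. Of these 6 genes, 5 were lower, where 53.4% of all genes were, and the median was −0.24. Of the 5, 4 had an unadjusted p under 0.05, which 2.41% of all genes reached on that side. Palld encodes palladin, an actin-crosslinking adaptor of the Z-disc and of stress fibres. It read 7.58, 7.91 and 7.77 in WT and 7.16, 7.49 and 7.16 in MKO. The lowest WT mouse lay above the highest MKO mouse, and the difference was −0.48 (SE 0.12, unadjusted p = 0.00202), or 1.4-fold. Its unadjusted p stayed between 0.000831 and 0.044 over 16 alternatives, while a level taken as the probe-set median gave −0.43 with overlapping arrays.

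Pdlim1, which encodes the alpha-actinin partner CLP36, read 10.45, 10.44 and 10.40 in WT and 10.14, 10.14 and 10.27 in MKO. The WT mice lay within a narrow band that no MKO mouse reached, with a difference of −0.25 (SE 0.07, unadjusted p = 0.0032). Taken as the median of 9 probe sets, the difference was −0.12 (unadjusted p = 0.317). Ldb3 encodes ZASP, also called cypher, which binds alpha-actinin through its PDZ domain. It read 10.31, 10.42 and 10.38 in WT and 10.08, 10.20 and 10.16 in MKO, a difference of −0.22 (SE 0.07). Pdlim3, the actinin-associated LIM protein, read 10.96, 11.10 and 10.91 in WT and 10.61, 10.84 and 10.82 in MKO, a difference of −0.23 (SE 0.08). MKO replicate 1 was its lowest array, and the difference was −0.16 without it. Without WT replicate 2, its highest array, it was −0.18 (unadjusted p = 0.0577).

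The other PDZ-LIM genes overlapped between the groups. Pdlim7, which encodes the adaptor enigma, read 6.18, 5.82 and 6.03 in WT and 5.55, 5.80 and 5.84 in MKO. WT replicate 2 lay among the MKO values, and without it the difference of −0.28 (SE 0.14) was −0.38 (unadjusted p = 0.0348). Pdlim5, or ENH, a scaffold for protein kinases at the Z-disc, was the 1 gene of this group on the other side, at 7.38 ± 0.09 in WT and 7.49 ± 0.17 in MKO (SD, n = 3).

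Promoter sequence in RefSeq (GRCm38.p6) was searched for motifs of muscle transcription factors in windows from 250 bases before to 50 after a start. These are reference windows, and no binding was measured. The CArG box, the site of serum response factor, was found in 11.1% of the 18 windows of the 13 members with all MKO arrays below WT. Both of these windows belong to Ldb3 and overlap, so they hold 1 box in 1 of 13 genes. It was found in 18.2% of the 22 windows of other members (18 of 27 genes had a window) and in 1.63% of all 32851 windows. The letters CATTCC, the core of the site for TEAD factors, were in 33.3%, 22.7% and 14.7% of these windows. In the first set these were 6 windows of 5 genes, since 1 match in Flnc lies in overlapping windows. The MEF2 site was in 5.56%, 22.7% and 3.19%, and CANNTG, the E-box bound by myogenic factors, in 61.1%, 81.8% and 72.3%. Both strands were searched, and in member windows CArG and MEF2 matches lay in different genes.

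The 120 bases before the start of the 5 members with a CArG box are shown 5′ to 3′ on the gene's strand, with the box in capitals, because these genes carry the same element and differ in their values. Palld and Mybph follow with CATTCC or its reverse complement in capitals, as the members with the lowest unadjusted p and the largest difference among those whose arrays did not overlap. Palld and Fhl1 also have windows at other starts, which hold no match to the motif shown for them. Which start the soleus uses was not measured.
Ldb3, chr14:34588682-34588801, minus strand: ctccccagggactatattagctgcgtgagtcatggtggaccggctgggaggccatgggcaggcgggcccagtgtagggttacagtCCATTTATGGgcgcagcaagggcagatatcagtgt
Acta1, chr8:123894776-123894895, minus strand: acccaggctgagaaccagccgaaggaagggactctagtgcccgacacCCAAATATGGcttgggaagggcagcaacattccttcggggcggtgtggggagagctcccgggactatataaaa
Actc1, chr2:114052876-114052995, minus strand: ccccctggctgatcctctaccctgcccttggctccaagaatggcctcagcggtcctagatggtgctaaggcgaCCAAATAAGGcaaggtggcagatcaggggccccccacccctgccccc
Myom1, chr17:71019437-71019556, plus strand: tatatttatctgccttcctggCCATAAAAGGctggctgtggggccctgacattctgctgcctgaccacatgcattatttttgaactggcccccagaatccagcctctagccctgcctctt
Fhl1, chrX:56779563-56779682, plus strand: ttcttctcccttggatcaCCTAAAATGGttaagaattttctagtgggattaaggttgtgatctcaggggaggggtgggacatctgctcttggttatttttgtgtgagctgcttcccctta
Palld, chr8:61760090-61760209, minus strand: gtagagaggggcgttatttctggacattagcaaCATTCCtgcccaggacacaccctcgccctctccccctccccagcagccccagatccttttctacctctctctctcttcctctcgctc
Mybph, chr1:134193328-134193447, plus strand: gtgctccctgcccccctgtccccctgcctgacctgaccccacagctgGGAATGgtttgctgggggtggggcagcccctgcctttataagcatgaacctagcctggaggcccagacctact
Of the 5 genes with a CArG box, Ldb3 differed by −0.22 with arrays that did not overlap, while Acta1 (−0.02), Actc1 (−0.07), Myom1 (−0.02) and Fhl1 (−0.04) had overlapping arrays and 95% intervals that held 0.

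Among the Z-disc crosslinkers and thin-filament anchors, with Tcap and the calsarcins counted among them, 8 of 9 were lower, against 53.4% of all genes. Only Flnc had arrays that did not overlap, with MKO below WT as for 4.99% of all genes. Filamin C crosslinks actin around the Z-disc and is recruited to damaged sarcomeres. Flnc read 10.91, 11.12 and 10.97 in WT and 10.77, 10.87 and 10.73 in MKO, a difference of −0.21 (SE 0.07, unadjusted p = 0.0127). WT replicate 2 was its highest array, and without it the difference was −0.15 (unadjusted p = 0.0722).

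Actn2, the alpha-actinin of all fibre types, read 11.93, 11.95 and 11.90 in WT and 11.79, 11.77 and 11.92 in MKO. MKO replicate 3 lay with the WT mice, and the difference of −0.10 (SE 0.06) was −0.15 without it (unadjusted p = 0.0172). Tcap, the cap of titin at the Z-disc, read 11.62, 11.53 and 11.55 in WT and 11.55, 11.66 and 11.45 in MKO, with the mice of both groups mixed. The remaining genes of this kind, Myot (myotilin), Myoz2 (calsarcin-1, the slow-fibre calsarcin) and Synpo2 (myopodin), differed by −0.04, −0.02 and −0.12, with overlapping arrays.

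Of the 6 members linked to fast fibres, Actn3 and Mybpc2 had MKO replicate 1 far below all other arrays. Actn3, the alpha-actinin of fast glycolytic fibres, read 9.64, 8.94 and 10.29 in WT and 6.61, 9.64 and 9.92 in MKO. MKO replicate 1 lay far below all others, and the difference of −0.90 (SE 0.64) turned to 0.16 without it. Without MKO replicate 3 it was −1.50 (unadjusted p = 0.0349). Mybpc2, the fast myosin-binding protein C, read 8.43, 8.46 and 9.03 in WT and 6.92, 8.85 and 8.80 in MKO, and its difference turned from −0.45 (SE 0.38) to 0.18 without MKO replicate 1.

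Myoz1, the fast-fibre calsarcin-2, read 9.62, 9.52 and 9.51 in WT and 9.15, 9.47 and 9.59 in MKO, again with MKO replicate 1 lowest. Its difference was −0.15 (SE 0.10), −0.02 without that array, and −0.24 (unadjusted p = 0.0318) without MKO replicate 3. Myoz3, the calsarcin-3 of fast fibres, read 7.01, 7.24 and 6.73 in WT and 6.77, 7.17 and 7.06 in MKO, and its difference of 0.01 (SE 0.15) changed sign with several left-out arrays. Tmod4, a tropomodulin of fast fibres, differed by 0.10 (SE 0.09).

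A pair of the 10 fast-fibre markers was also far lower on that array. Myh4, the type IIb myosin heavy chain, read 10.89, 9.48 and 11.72 in WT and 5.11, 7.94 and 11.51 in MKO, and Pvalb, a calcium buffer of fast fibres, read 7.66, 7.30 and 8.23 in WT and 5.64, 7.73 and 7.92 in MKO. Most other fast-fibre markers also lay below all WT arrays on MKO replicate 1, by less. There Casq1 read 10.11 (10.54 to 10.72 in WT), Mylpf 8.62 (8.73 to 9.15) and Atp2a1 11.82 (11.93 to 11.96). Tnnt3 read 11.66 (11.71 to 11.76), Myl1 8.72 (8.79 to 9.27) and Myh1 9.94 (9.96 to 10.61). Tnni2, at 10.20, lay within the WT range (10.13 to 10.23), and Tnnc2, at 11.11, lay above it (10.95 to 10.99). Of the 10 markers 7 were lower, with a median of −0.05, or 0.03 without MKO replicate 1. Their summed log2 level ran from 100.9 to 103.0 in WT and from 92.9, in MKO replicate 1, to 103.3 in MKO, and none lay below the median gene. In whole muscle, fewer fibres of a type and less RNA per fibre cannot be told apart. The part of fibre type in these differences was not tested.

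**Figure D2:**
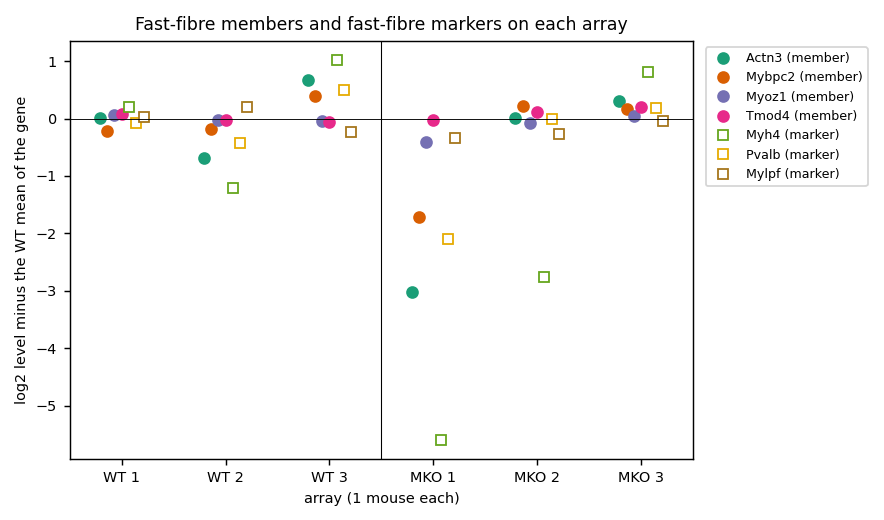
Level of 4 fast-fibre members (filled circles) and 3 fast-fibre markers (open squares) on each array minus the WT mean of the same gene, on the log2 scale. On MKO replicate 1 Myh4, Actn3, Pvalb and Mybpc2 lie far below the other arrays of the group, while Tmod4 stays near the WT mean.

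Members linked to slow fibres were read beside them. All 8 (Ankrd2, Csrp3, Myoz2, Pdlim1, Smpx, Fhl1, Tmod1 and Myom3) were lower, with a median of −0.16, and 5 of them had arrays that did not overlap, against 4.99% of all genes. Of the 6 fast-linked members, 4 were lower, also with a median of −0.16, and 0 had arrays apart. The difference between these lists was not tested, and they were drawn up with earlier results known. They are uneven: Mybpc2 was on the fast list, while Mybpc1, the slow myosin-binding protein C (−0.06), was not on the slow list. Of 9 slow-fibre markers, 6 were lower with a median of −0.04, and their summed level ran from 84.6 to 86.2 in WT and from 83.9 to 85.3 in MKO. The slow myosin heavy chain Myh7 read 11.03 ± 0.16 in WT and 10.93 ± 0.01 in MKO (SD, n = 3). Myh7b, in the same list, differed by −0.39 (SE 0.13, unadjusted p = 0.0124, adjusted p = 0.9997). It was the 1 slow-fibre marker with all MKO arrays below WT and was named after its values were seen.

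Of the genes of stretch sensing and of the costamere, 6 of 8 were lower, or 75%. This share was 68.3% for non-member genes at a level of 10 or more and 53.3% for genes under it. Fhl1, Capn3 and Smpx lay under that level. Lower values with an unadjusted p under 0.05 were reached by 3 of the 8 genes, against 2.41% of all genes. Csrp3 encodes muscle LIM protein, a Z-disc protein of slow fibres and heart that responds to stretch. It read 10.25, 10.53 and 10.29 in WT and 10.21, 10.03 and 10.19 in MKO, a difference of −0.21 (SE 0.09, unadjusted p = 0.0276). The nearest WT and MKO mice nearly touched, and without WT replicate 2, its highest array, the difference was −0.13 (unadjusted p = 0.158). It was −0.16 without MKO replicate 2 (unadjusted p = 0.126).

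Ankrd2 and Ankrd23 belong to the same family of muscle ankyrin repeat proteins, which bind titin in the I-band, and they lay on opposite sides. Ankrd2 read 11.28, 11.52 and 11.30 in WT and 11.25, 11.19 and 11.15 in MKO, a difference of −0.17 (SE 0.07). Its highest array was WT replicate 2, without which the difference was −0.09 (unadjusted p = 0.191). Its unadjusted p was 0.0339 with all arrays, 0.0761 without MKO replicate 2 and 0.083 without MKO replicate 3. Ankrd23 read 12.13, 12.02 and 12.07 in WT and 12.19, 12.24 and 12.14 in MKO, with the groups nearly touching and a difference of 0.12 (SE 0.05, unadjusted p = 0.0547). Without WT replicate 1 it was 0.15 (0.0455) and without MKO replicate 3 0.14 (0.0255). After quantile normalization the difference was 0.00, so no direction held across the scalings.

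The Xin proteins bind actin at the myotendinous junction and at sites of sarcomere repair. Xirp2 read 10.96, 10.95 and 10.77 in WT and 10.52, 10.73 and 10.81 in MKO, a difference of −0.21 (SE 0.08) with overlapping arrays, and −0.13 without MKO replicate 1 (unadjusted p = 0.118). The p was 0.0268 with all arrays, 0.101 without WT replicate 1 and 0.0858 without WT replicate 2. Xirp1 read 10.35, 10.96 and 10.46 in WT and 10.32, 10.57 and 10.18 in MKO, a difference of −0.23 (SE 0.14). It ranged from −0.36 without WT replicate 1 (unadjusted p = 0.0271) to −0.05 without WT replicate 2, and was −0.34 without MKO replicate 2 (0.0403). Smpx, a small protein of the costamere, read 7.90, 8.07 and 7.99 in WT and 7.61, 7.75 and 8.26 in MKO, where the MKO mice spanned the whole range. Its difference of −0.11 (SE 0.14) was −0.31 without MKO replicate 3 (unadjusted p = 0.0128) and 0.02 without MKO replicate 1.

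Fhl1, a four-and-a-half-LIM-domain protein, read 8.58, 8.63 and 8.33 in WT and 8.53, 8.42 and 8.47 in MKO, within the WT range. Capn3, the muscle protease calpain 3, which binds titin, read 7.91, 8.05 and 7.99 in WT and 7.90, 8.04 and 8.05 in MKO, a difference of 0.01 (SE 0.09). Its probe sets disagreed: 17 of 26 were lower, 9 higher, and the dim probe set 17375069 was higher by 2.20. When its level was the median over probe sets, the difference was −0.38 (unadjusted p = 0.0118).

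Des encodes desmin, the intermediate filament of muscle. It read 11.14, 11.11 and 11.11 in WT and 10.80, 10.93 and 10.95 in MKO, a difference of −0.23 (SE 0.06, unadjusted p = 0.00336) or 1.17-fold. The WT mice lay close together, above all MKO mice, and the difference was −0.18 without MKO replicate 1. Synm, its filament partner synemin, read 8.17, 7.87 and 8.13 in WT and 7.87, 8.10 and 8.04 in MKO, a difference of −0.05 (SE 0.11) with mixed arrays.

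The giant filaments, read by the most probe sets, had small differences. Ttn, with 272 probe sets, read 11.63, 11.56 and 11.70 in WT and 11.43, 11.66 and 11.70 in MKO. The difference was −0.03 with a 95% interval from −0.19 to 0.13. Neb, with 140 probe sets, read 11.91, 11.90 and 11.94 in WT and 11.76, 11.88 and 11.90 in MKO, a difference of −0.07 with an interval from −0.19 to 0.06. MKO replicate 1 was lowest for both.

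All 6 genes of the M-band and of the thick-filament binders were lower, with a median of −0.17. The share lower was 53.4% of all genes and 68.3% of non-member genes at a level of 10 or more. Without MKO replicate 1, Mybpc2 and Myom1 were higher, by 0.18 and 0.01. For 3 of the 6 (Myom3, Mybpc1 and Mybph) all MKO arrays lay below WT, against 4.99% of all genes. Mybph, which encodes myosin-binding protein H, had the largest difference among members whose arrays did not overlap. It read 5.63, 6.77 and 6.03 in WT and 4.97, 5.61 and 5.59 in MKO, a difference of −0.75 (SE 0.25, unadjusted p = 0.011) or 1.69-fold. Its lowest WT and highest MKO mouse nearly touched, and it was the dimmest member. Without WT replicate 2 the difference was −0.44 (unadjusted p = 0.0657), and without MKO replicate 1 it was −0.54 (0.05). Mybpc1, the slow myosin-binding protein C, read 11.62, 11.62 and 11.60 in WT and 11.51, 11.56 and 11.59 in MKO. Its arrays did not overlap, yet the difference was only −0.06 (SE 0.05).

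Of the myomesins, which crosslink myosin at the M-band, Myom3 read 10.21, 10.34 and 10.27 in WT and 10.02, 10.21 and 10.14 in MKO. The difference was −0.15 (SE 0.07, unadjusted p = 0.0601), −0.20 without MKO replicate 2 (0.042) and −0.03 with the median of its 28 probe sets. Myom2, the fast-fibre M-protein, read 9.48, 9.68 and 9.35 in WT and 9.19, 9.31 and 9.46 in MKO, a difference of −0.18 (SE 0.10) with overlapping arrays. It was −0.26 without WT replicate 3 (unadjusted p = 0.0323), −0.25 without MKO replicate 3 (0.029) and −0.09 without WT replicate 2. Myom1, the myomesin of all striated muscle, read 11.07, 10.97 and 11.09 in WT and 10.96, 10.97 and 11.14 in MKO, with a difference of −0.02 (SE 0.07).

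Of 7 genes for actins, thin-filament caps and leiomodins, with the kelch gene Kbtbd5 counted among them, 5 were lower. The median was −0.04. That is 71.4%, against 53.3% of genes under a level of 10 and 68.3% of non-member genes at 10 or more. Only Acta1 and Lmod2 of the group reached that level. Of the 5 lower genes, 2 (Tmod1 and Kbtbd5) had an unadjusted p under 0.05, against 2.41% of all genes. The actins and leiomodins had differences near 0. Acta1, the skeletal alpha-actin, read 12.60, 12.57 and 12.51 in WT and 12.43, 12.57 and 12.62 in MKO, and its 95% interval ran from −0.15 to 0.10. Actc1, the cardiac alpha-actin, read 7.23, 7.21 and 7.73 in WT and 7.17, 7.58 and 7.20 in MKO, with 1 high mouse in each group. Lmod3, a leiomodin that nucleates and lengthens actin filaments, read 8.49, 8.31 and 8.46 in WT and 8.28, 8.45 and 8.40 in MKO, and Lmod2 differed by 0.07 (SE 0.06).

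Kbtbd5 encodes Klhl40, a kelch protein that stabilises nebulin and leiomodin 3. It read 7.95, 8.50 and 7.86 in WT and 7.50, 7.65 and 7.50 in MKO, with all MKO mice below the WT mice. The difference was −0.55 (SE 0.15, unadjusted p = 0.00234) or 1.47-fold, and its unadjusted p lay between 0.000745 and 0.0114 over 16 alternatives. Without WT replicate 2, its highest array, the difference was −0.36. Tmod1, a tropomodulin that caps the pointed end of thin filaments, read 7.37, 7.15 and 7.26 in WT and 6.81, 7.15 and 7.01 in MKO. The groups nearly touched, at 7.15 in each, and the difference of −0.28 (SE 0.12) was −0.19 without MKO replicate 1 (unadjusted p = 0.126). Its p was 0.0383 with all arrays, 0.15 without WT replicate 1, 0.0743 without WT replicate 3 and 0.0516 without MKO replicate 3.

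**Figure D3:**
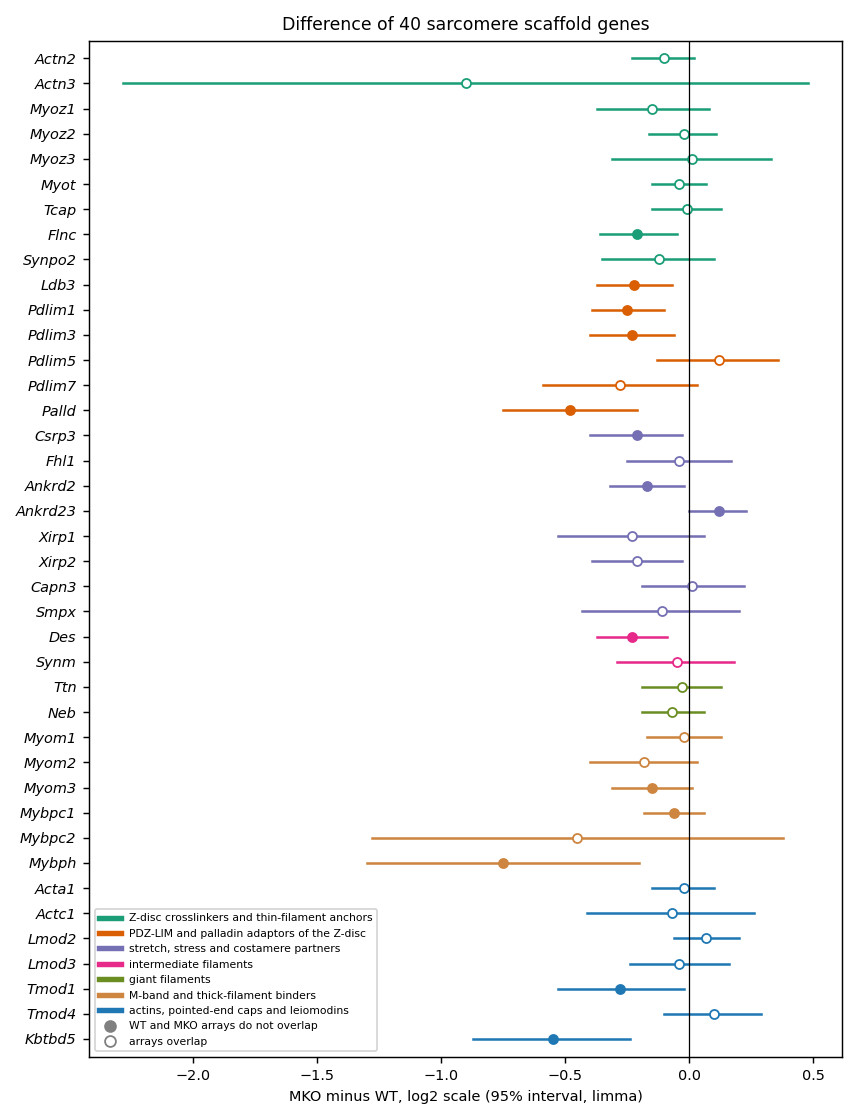
Difference between MKO and WT for each member on the log2 scale with its 95% interval from limma, coloured by role; filled points mark members whose WT and MKO arrays did not overlap. Actn3 and Mybpc2 have the widest intervals, and most points lie left of 0 within 0.3 of it.

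**Figure D4:**
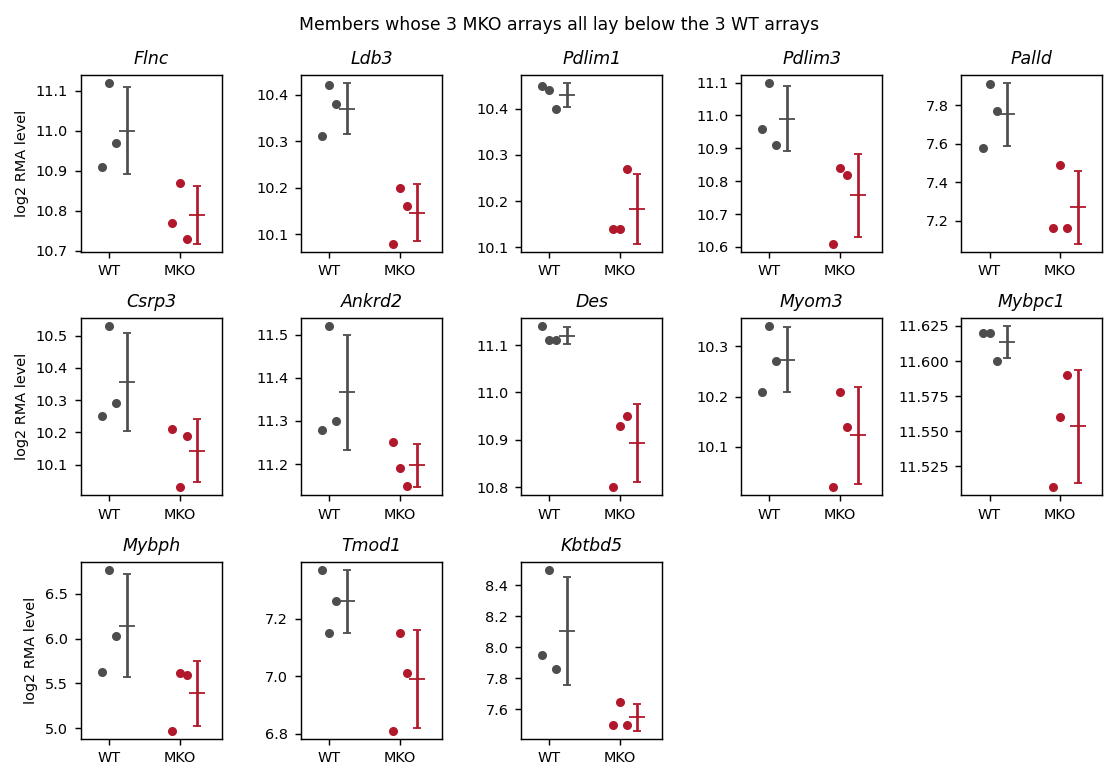
Log2 level of the 13 members whose MKO arrays all lay below the WT arrays, as 1 point per mouse with the mean and SD of each group of 3 beside the points; each panel has its own axis, which does not start at 0. Kbtbd5, Des, Pdlim1 and Ldb3 show a gap, and that of Palld is narrower (lowest WT 7.58, highest MKO 7.49). Tmod1, Mybph, Ankrd2 and Myom3 nearly touch.

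The probe sets of a gene read different stretches of its RNA and can be set against each other only as differences. Of the 926 member probe sets, 614 were lower and 312 higher, and limma called 0 of them (smallest adjusted p = 0.979), as it called 0% of all probe sets. At an unadjusted p under 0.05, 85 were lower and 4 higher, against 2.87% and 2.11% of all probe sets. All MKO arrays lay below WT for 91, or 9.83%, against 5.21% of all probe sets, and above WT for 19, against 4.69%. Ttn and Neb, which had small differences, hold 272 and 140 of these probe sets. Without them, 83 of 514, or 16.1%, had all MKO arrays below WT and 12 had all above.

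Every probe set was lower for Kbtbd5 (8 of 8), Pdlim1 (9 of 9), Pdlim3 (9 of 9), Ldb3 (17 of 17) and Ankrd2 (10 of 10). The same was true of Tcap (3 of 3), Xirp1 (3 of 3) and Actn3 (16 of 16), whose gene-level arrays overlapped, and for Actn3 the difference turned to 0.16 without MKO replicate 1. For Flnc 35 of 38 were lower, and all MKO arrays lay below WT for 18 of them. Palld had 19 of 21 lower, with probe set 17509552 lowest at −2.20 (SE 1.31), where MKO replicate 3 alone was low, and the mean of the others was −0.40. Csrp3 had 7 of 8 lower and Des 9 of 10. Mybph was uneven, with 7 of 8 lower and 1, 17217416, higher by 1.03.

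In Neb, 85 of 140 probe sets were lower, and 17385130 stood alone at −2.72 (SE 0.58). In Ttn, 140 of 272 were lower and 132 higher. Ankrd23 had all 8 probe sets higher, from 0.01 to 0.24.

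**Figure D5:**
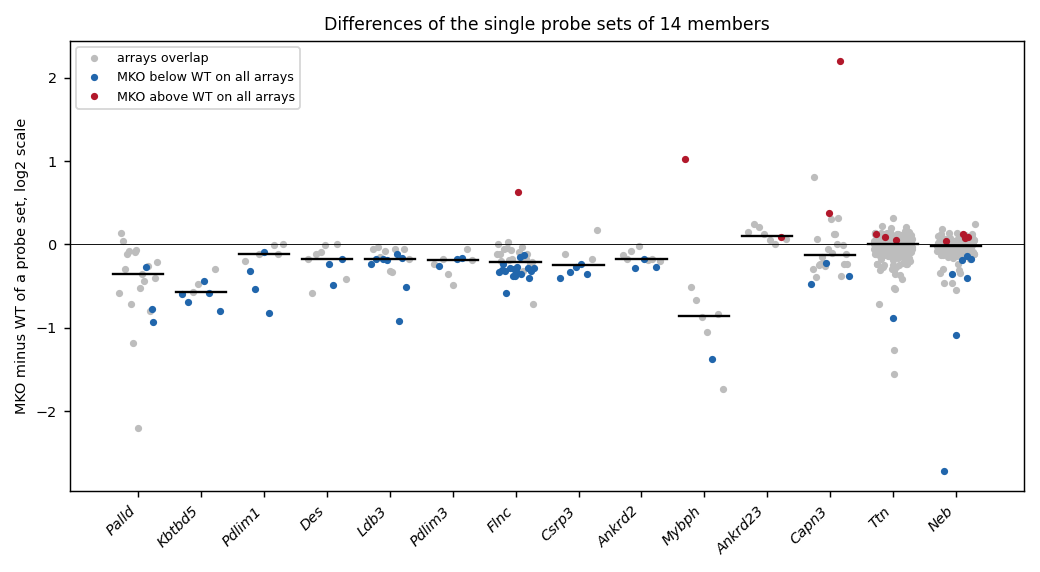
Difference between MKO and WT of each probe set of 14 members on the log2 scale, with the median of a gene as a black line; blue and red points are probe sets whose MKO arrays all lay below or above WT. The points of Kbtbd5, Ldb3, Pdlim3 and Ankrd2 lie below 0, while those of Ttn and Neb centre on 0 with single low outliers.

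A further list held 39 measured sarcomere scaffold genes outside the 40. Of these, 34 were lower and 5 higher, with a median of −0.08, and 0 passed the adjusted threshold. At an unadjusted p under 0.05, 5 were lower and 0 higher, against 2.41% and 1.92% of all genes. Arrays apart were near the shares of 4.99% lower and 4.26% higher over all genes. All MKO arrays lay below WT for 3 of them, Bag3, Vcl (vinculin, of the costamere) and Nrap, and above WT for 1, Trim55, names chosen after their values were seen. Bag3, a cochaperone that clears damaged filamin, had the smallest p, with WT at 9.94 ± 0.02 and MKO at 9.71 ± 0.01 (SD, n = 3) and a difference of −0.23 (SE 0.07). Ankrd1, a stretch-induced relative of Ankrd2, differed by −0.51 (SE 0.20) with overlapping arrays. Kbtbd10, now Klhl41 and a relative of Klhl40, differed by −0.16 (SE 0.07), and Synpo2l, a relative of Synpo2, by −0.22 (SE 0.09).

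Palladin, filamin C and the PDZ-LIM proteins are also made outside muscle fibres, so markers of other cells were read beside them. Of 9 smooth muscle and pericyte markers, 5 were lower with a median of −0.02, and their summed log2 level ran from 58.6 to 60.6 in WT and from 58.8 to 60.1 in MKO. Of 8 fibroblast markers, 7 were lower with a median of −0.19, and their sum ran from 61.0 to 63.0 in WT and from 58.5 to 62.2 in MKO. Without MKO replicate 1 the fibroblast median was −0.08. The part of fibroblasts in the differences of Palld and the other members was not tested.

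Of 7 endothelial markers, 7 were lower with a median of −0.10 (sums of 47.8 to 50.5 in WT and 46.5 to 48.8 in MKO). Among them Cldn5 (−0.73, unadjusted p = 0.000318, adjusted p = 0.666) and Vwf (−0.27) had all MKO arrays below WT, and the p of Cldn5 was smaller than that of any member. All 7 macrophage markers were lower too, with a median of −0.15 (36.7 to 38.9 and 35.3 to 36.4). The list for satellite cells and regenerating fibres had 5 of 7 lower with a median of −0.19 (39.4 to 40.6 and 38.3 to 39.3). In it Myh3 (−0.70, unadjusted p = 0.000543, adjusted p = 0.786), Myog (−0.51) and Ncam1 (−0.19) had all MKO arrays below WT. These 5 genes were named after their values were seen. The tenocyte list had 5 of 6 lower with a median of −0.11 (38.7 to 41.4 and 39.1 to 40.2). The part of these cells in the scaffold differences was not tested. Cardiac (6 measured), nerve (4) and adipocyte (6) lists had 2, 1 and 3 markers lower, with medians of 0.12, 0.18 and −0.05. Their sums ran from 26.1 to 27.0, 15.8 to 16.6 and 35.0 to 38.2 in WT and from 26.7 to 27.6, 16.2 to 16.8 and 34.3 to 40.1 in MKO.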

How the data were processed

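Per the labels, total RNA from 6 soleus muscles (3 WT, 3 MKO) was labelled with biotin and hybridised to Affymetrix Mouse Gene 2.0 ST arrays. The authors deposited log2 values after robust multi-array averaging (RMA). Affymetrix Expression Console is named in the submitters' processing notes, and the sources used here do not give its version, a genome build or an annotation release. The series text speaks of gene-level values, but the table had 269751 rows with a median of 8 per gene, which were treated as probe sets. Genes were named from the platform's old annotation: 233753 rows had 1 symbol, 5106 several and 30892 none. Only the first kind was used, and 4 rows naming a member beside another gene were left out.

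Gene values (means of probe sets) were fitted whole with limma 3.58.1 in R 4.3.3 (variance trend, two-sided, Benjamini-Hochberg over 23152 genes, threshold 0.05). All p-values come from limma. The authors' local pooled error test was not run. The number of arrays limits precision. The fit was tested on simulated data.

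The members, gene lists and marker lists were chosen with earlier results of these data known. Named were members with an unadjusted p under 0.05, with arrays that did not overlap, with the smallest p of their role group, with the largest spread, or decided by 1 array, the 4 other scaffold genes of smallest p and markers touching a result. Of 40 further scaffold genes, 39 matched. Promoters were matched by symbol. Alternatives were other moderation, array weights, replicate blocks, scaling, filters, the median of probe sets and each array left out. The split at a level of 10 and quantile normalization without MKO replicate 1 were chosen after seeing the data.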

Additional observations from a re-analysis of the deposited data

How the results depend on the processing

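No member passed the adjusted threshold under any of the 16 alternatives, and 0 member probe sets were called; the smallest adjusted p was 0.395, for Pdlim1 with array weights. Over all genes 1 was called with array weights, and 0 to 1 with an array left out. Lower members at an unadjusted p under 0.05 (12) were 3 without a variance trend, 6 after median centring and 7 to 15 with an array left out (7 without WT replicate 2). Higher ones (0) were 1 with robust moderation, array weights, genes or probe sets above the median level, or quantile normalization without MKO replicate 1, and 0 to 1 with an array left out. Members with all MKO arrays below WT (13) were 7 after quantile normalization or median centring, 8 after quantile normalization without MKO replicate 1, and 13 to 21 with an array left out (21 without MKO replicate 3). That last count cannot fall below 13, and its share over all genes also grows with fewer arrays (4.99% with all, 11.4% without MKO replicate 1). Those above (1) were 2 under both scalings, 2 in the version without MKO replicate 1, and 1 to 2 with an array left out. The median of the members (−0.12) was −0.03 after quantile normalization without MKO replicate 1, and −0.16 to −0.05 with an array left out.

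The labels do not say whether equal replicate numbers pair the mice, and correlations over all genes cannot settle it. Deviations of same-numbered mice correlated at −0.0881, 0.0907 and −0.236 over 23152 genes. With the replicate block, 12 members were lower at an unadjusted p under 0.05, 11 of them shared with the fit without it. Of the MKO mice, only replicate 2 correlated best with the WT mouse of its own number, and no WT mouse did so with its MKO counterpart.

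Several differences near 0 changed sign. After quantile normalization they were 0.06 for Tcap, 0.0013 for Synm, 0.02 for Myom1 and Acta1 and 0.01 for Lmod3. After median centring Tcap stood at 0.01, Myom1 at 0.0049 and Acta1 at 0.0039. With array weights Tcap was 0.005 and Actc1 0.07. With the median of probe sets Capn3 was −0.38, Smpx 0.04 and Myom1 0.01, and with bright probe sets Capn3 was −0.14 and Smpx 0.03. After quantile normalization without MKO replicate 1, Actn3 was 0.18, Mybpc2 0.19, Tcap 0.06, Ttn 0.05, Ankrd23 −0.01, Smpx and Lmod3 0.01, and Myoz1, Synm, Neb, Myom1 and Acta1 0.02. With an array left out, differences ran from −1.50 to 0.16 for Actn3, −0.78 to 0.18 for Mybpc2, −0.12 to 0.13 for Myoz3, −0.07 to 0.04 for Tcap, −0.13 to 0.02 for Fhl1, −0.02 to 0.06 for Capn3, −0.31 to 0.02 for Smpx, −0.14 to 0.01 for Synm, −0.09 to 0.05 for Ttn, −0.08 to 0.01 for Myom1, −0.06 to 0.04 for Acta1, −0.20 to 0.10 for Actc1 and −0.10 to 0.01 for Lmod3. Apart from left-out arrays and fewer genes tested, the cause of these changes was not tested. The median standard error of a member was 0.09, and the 95% interval of a difference no larger than its standard error holds 0.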
